A study of Mus musculus with 4 samples.

Results

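The B cell and plasma cell genes described here are 9 genes, taken by symbol as a list of lineage genes: Cd79a, Cd79b, Ms4a1 and Pax5, which mark B cells, and Jchain, Mzb1, Ighm, Igha and Igkc, which plasma cells use to make and assemble antibody. All 9 were present among the 54532 genes of the count table, and all 9 passed the filter of 10 counts or more in any 1 library, as did 16369 genes in total. The libraries came from C57BL/6 mice aged 6 to 8 weeks, all carrying the PMN (pre-metastatic niche) model: MCM, the medium conditioned by B16F10 melanoma cells, was given intraperitoneally at 300 μL per mouse for 10 days, and B16F10 cells were injected into the tail vein on day 7. From day 3, the TP5, sFD17 and FR17 groups received that peptide under the skin at 40 μM/kg/day, the Ctrl group received none, and lungs were taken on day 10. Thymopentin, a pentapeptide given unattached, is called TP5. In FR17 it hangs on a self-assembling backbone by a linker that MMP2 cleaves, and sFD17 has the same build with the pentapeptide scrambled. CD11b+Ly6g+ myeloid-derived suppressor cells (MDSCs) were sorted from the lungs of 10 to 12 mice per group and sequenced as 1 pooled library per group.

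B cells carry an antibody in their membrane, held there by the signalling pair CD79A and CD79B, and are kept in the B cell state by the transcription factor PAX5. When a B cell becomes a plasma cell, it turns down this surface machinery and secretes antibody in large amounts. The heavy chain constant region decides the class of the antibody: Ighm gives IgM, the class of cells that have not switched, and Igha gives IgA, the class secreted at mucosal surfaces such as the airway. The J chain, encoded by Jchain, joins IgA and IgM units into polymers, and Mzb1 encodes a chaperone of the endoplasmic reticulum that helps the heavy chain fold.

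A CD11b+Ly6g+ gate selects granulocytic cells: CD11b is also found on some B cells, whereas Ly6g is a granulocyte marker. Markers of the gate were present, as Itgam, which encodes CD11b, had 5711 to 6924 counts, Ly6g had 1234 to 2081, fewer than Ighm in every library (4309 counts against 1234 in Ctrl), and 18 neutrophil markers took 4.19% to 4.83% of all counts. The 9 B cell and plasma cell genes together took 0.0501% of counts in Ctrl (95% Wilson interval 0.0490 to 0.0512), 0.0616% in TP5, 0.0412% in sFD17 and, highest, 0.0747% in FR17. The library totals ran from 15543071 to 19638228 counts. Levels are given as CPM, the count of a gene relative to its TMM-scaled library total, and changes are log2 fold changes on the log2 CPM scale with a prior count of 2. The shares above are of unscaled totals. Scaled, the 9 genes summed to 508 CPM in Ctrl, 603 in TP5, 486 in sFD17 and 639 in FR17. Ighm alone held 4309 of their 8581 counts in Ctrl. Each interval is a 95% counting interval of the reads in those libraries. With 1 library per group no difference has a replicate check, and no p-value is given: a gene is said to rise or fall when it changed at least 2-fold, and a smaller difference is given by its value. In pooled bulk RNA, more cells of a type and more RNA per cell cannot be told apart.

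The 4 B cell genes stood highest in TP5, next in FR17, then in sFD17 and lowest in Ctrl, each of them in this order under TMM scaling. The order was not kept under every alternative. Cd79b was at −0.01 in sFD17, below Ctrl, with library size alone. Pax5 was higher in FR17 than in TP5 with library size alone (log2 fold changes against Ctrl of 0.51 and 0.37) and with no filter on low counts (0.34 and 0.32), and with DESeq2 size factors it was at 0.26 in both sFD17 and FR17. Cd79a (ENSMUSG00000003379, chromosome 7 from 24897381 to 24902197 on GRCm38) had 463 counts in Ctrl, 835 in TP5, 440 in sFD17 and 926 in FR17. Scaled, these were 27.4 CPM (24.97 to 30.0) in Ctrl, 47.6 (44.4 to 50.9) in TP5, 33.3 (30.3 to 36.6) in sFD17 and 40.3 (37.8 to 43.0) in FR17. None of these 4 intervals overlapped. Its log2 fold change against Ctrl was 0.79 in TP5 (0.63 to 0.96), 0.28 in sFD17 (0.09 to 0.47) and 0.56 in FR17 (0.39 to 0.72).

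Cd79b, the partner of Cd79a in the receptor (ENSMUSG00000040592, chromosome 11 from 106311341 to 106314762), followed it closely. It had 300 counts in Ctrl, 533 in TP5, 270 in sFD17 and 556 in FR17, with log2 fold changes of 0.77 (0.57 to 0.98), 0.20 (−0.04 to 0.45) and 0.45 (0.24 to 0.65) in the peptide libraries in that order. The number of Cd79b counts per Cd79a count was 0.648 (0.558 to 0.751) in Ctrl, 0.638 in TP5, 0.614 in sFD17 and 0.600 (0.540 to 0.668) in FR17. These 4 ratios had overlapping intervals, and no difference in the proportion of the receptor pair was detectable at this depth.

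Ms4a1, which encodes the B cell surface protein CD20 (ENSMUSG00000024673, chromosome 19 from 11249675 to 11266241), was the only B cell gene among the 9 to pass 2-fold against Ctrl. It had 244 counts in Ctrl, 604 in TP5, 222 in sFD17 and 475 in FR17. Ms4a1 rose in TP5 with a log2 fold change of 1.25 (1.04 to 1.47), while the values were 0.22 (−0.05 to 0.49) in sFD17 and 0.52 (0.29 to 0.75) in FR17. Its ratio to Cd79a was 0.723 (0.650 to 0.804) in TP5 against 0.527 (0.449 to 0.617) in Ctrl, 0.505 in sFD17 and 0.513 in FR17. The interval in TP5 lay above those of the other libraries, which overlapped each other.

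Pax5 (ENSMUSG00000014030, chromosome 4 from 44524757 to 44710487) varied least of the 9 genes, with a highest level 1.25 times the lowest. Its counts were 254 in Ctrl, 330 in TP5, 231 in sFD17 and 415 in FR17, or 15.0 CPM (13.2 to 17.0), 18.8 (16.8 to 21.0), 17.5 (15.3 to 19.9) and 18.1 (16.4 to 19.9). The intervals of all 4 libraries overlapped. Its log2 fold change against Ctrl was 0.32 (0.08 to 0.56) in TP5, 0.22 (−0.04 to 0.48) in sFD17 and 0.26 (0.04 to 0.50) in FR17. Of its 8853 exon bases, 636 and 125 also lie in antisense genes, which had at most 3 counts in any library.

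**Figure D1:**
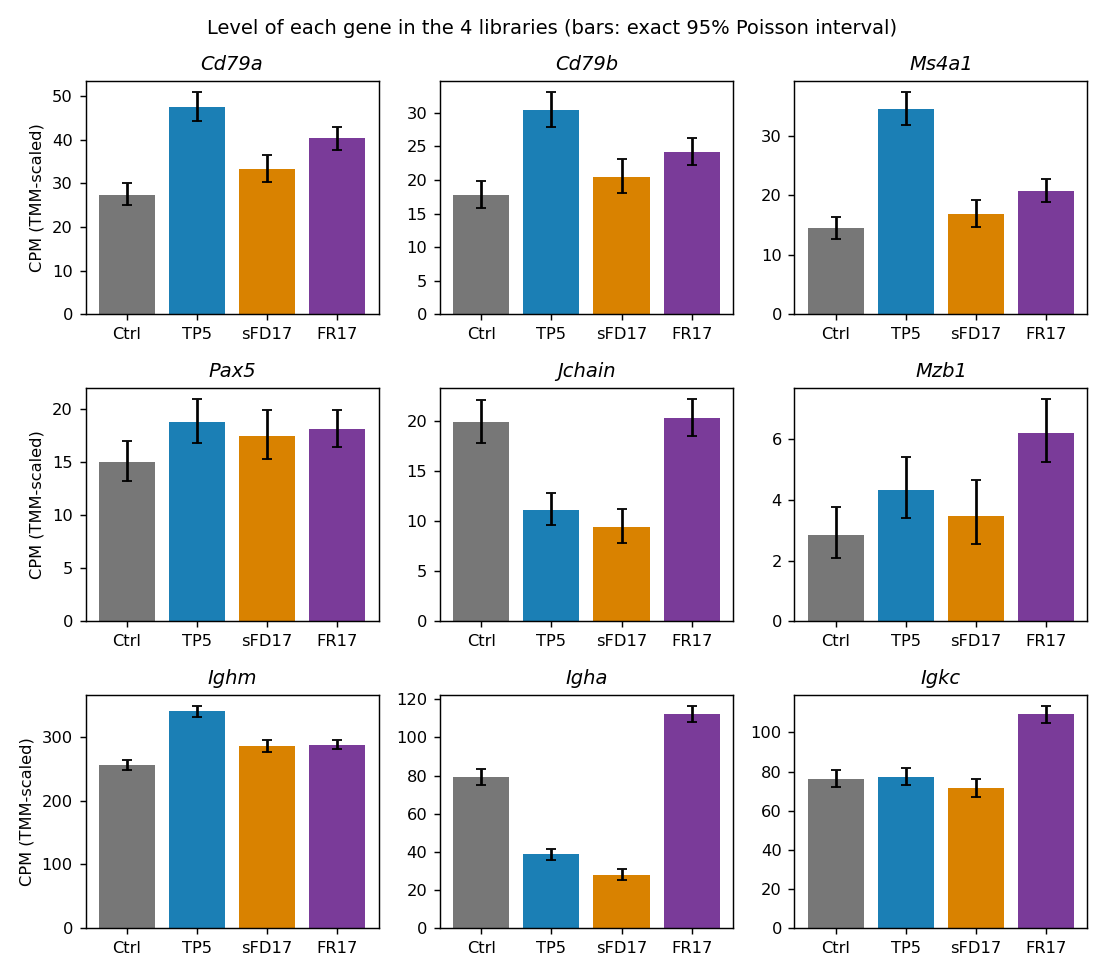
Level of each of the 9 genes in the 4 libraries, as TMM-scaled CPM on axes that start at 0, with exact 95% Poisson intervals as error bars (1 library per group). Cd79a, Cd79b, Ms4a1, Pax5 and Ighm were highest in TP5 (Pax5 not with library size alone or with no filter on low counts), whereas Jchain and Igha were highest in FR17, next in Ctrl, and lowest in sFD17, where Igha was at 27.7 CPM.

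The plasma cell genes did not move as a group, and Jchain went the opposite way to the B cell genes in TP5. Jchain (ENSMUSG00000067149, chromosome 5 from 88519809 to 88527891) had 335 counts in Ctrl, 195 in TP5, 124 in sFD17 and 465 in FR17. These were 19.8 CPM (17.8 to 22.1), 11.1 (9.61 to 12.8), 9.40 (7.81 to 11.2) and 20.3 (18.5 to 22.2). Ctrl and FR17 lay together, TP5 and sFD17 lay together, and the intervals of one pair did not overlap those of the other. Jchain fell in sFD17, with a log2 fold change of −1.07 (−1.39 to −0.78), and stood at −0.83 (−1.10 to −0.58) in TP5 and 0.03 (−0.18 to 0.24) in FR17.

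Mzb1 (ENSMUSG00000024353, chromosome 18), the least abundant of the 9, had only 48 counts in Ctrl, 76 in TP5, 46 in sFD17 and 143 in FR17. Mzb1 rose in FR17 with a log2 fold change of 1.10 (0.65 to 1.64). The values of 0.59 (0.07 to 1.16) in TP5 and 0.28 (−0.32 to 0.91) in sFD17 carry the widest intervals of any of the genes. By value it lay above Ctrl in every peptide library, unlike Jchain. Its name records a link to marginal zone and B1 B cells, so it is not confined to plasma cells. In the GENCODE M21 annotation 695 bases of its exons also belong to a neighbouring gene on the same strand.

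Of the 3 constant region genes among the 9, Igha had the widest range of levels, Igkc was highest in FR17, and Ighm was highest in TP5. Igha (ENSMUSG00000095079, chromosome 12 from 113254830 to 113260236) had 1337 counts in Ctrl, 677 in TP5, 366 in sFD17 and 2576 in FR17. In CPM these were 79.2 (75.0 to 83.5), 38.6 (35.7 to 41.6), 27.7 (24.96 to 30.7) and 112 (108 to 117), and no intervals overlapped. Igha fell in TP5, with a log2 fold change of −1.03 (−1.17 to −0.90), and in sFD17, with −1.51 (−1.68 to −1.35), and stood at 0.50 (0.41 to 0.60) in FR17. With library size alone it was at −0.98 in TP5, which is under 2-fold. Its highest level was 4.05 times its lowest, the widest span among the 9 genes.

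Ighm (ENSMUSG00000076617, chromosome 12 from 113418558 to 113422730) was the most abundant of the 9 in counts, with 4309 in Ctrl, 5965 in TP5, 3767 in sFD17 and 6599 in FR17. Its log2 fold changes were 0.41 (0.36 to 0.47), 0.16 (0.10 to 0.23) and 0.17 (0.12 to 0.23). The choice of scaling moved them beyond these counting intervals: with library size alone sFD17 was at −0.05 and FR17 at 0.42, and with no filter on low counts FR17 was at 0.25. TP5 stood highest at 340 CPM, FR17 and sFD17 overlapped at 287 and 285, and Ctrl was lowest at 255. Ighm is transcribed in unswitched B cells and in IgM plasma cells, and counts per gene do not separate its membrane and secreted forms.

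Igkc, the constant region of the kappa light chain that antibodies of every class can use (ENSMUSG00000076609, chromosome 6 from 70726435 to 70726966), had 1291 counts in Ctrl, 1357 in TP5, 942 in sFD17 and 2509 in FR17. Ctrl, TP5 and sFD17 lay between 71.4 and 77.4 CPM with overlapping intervals, and FR17 stood above them at 109 (105 to 114). The log2 fold change was 0.02 (−0.09 to 0.13) in TP5, −0.10 (−0.22 to 0.02) in sFD17 and 0.52 (0.42 to 0.61) in FR17. Per kilobase of gene length, Igkc and Ighm were the most abundant of the 9 in every library, at 144 and 135 CPM per kb in Ctrl. Igha followed with 29.7, Cd79a with 18.8, Cd79b with 12.4 and Jchain with 7.88, and Mzb1, Ms4a1 and Pax5 had 3.14, 2.33 and 1.70.

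Against Ctrl, 2 of the 9 genes changed at least 2-fold in TP5 (Ms4a1 higher, Igha lower), 2 in sFD17 (Jchain and Igha lower) and 1 in FR17 (Mzb1 higher). Over all genes tested, the share past 2-fold was 8.18% for TP5, 11.8% for sFD17 and 7.5% for FR17, so that 1 of 9 is near the background. As an alternative rule, edgeR's exact test at an unadjusted p under 0.05, which takes its spread from the 4 libraries as 1 group and is no replicate check, called 2, 2 and 0 of the 9 genes, where it called 1.98%, 4.83% and 1.88% of all genes. After Benjamini-Hochberg adjustment it called 0 of the 9 in each comparison. At 1.5-fold, a threshold chosen after seeing the data, 6 of the 9 passed in TP5, against 20.8% of all genes. In sFD17 and FR17, 2 and 1 passed, against 29% and 22.7%. In FR17 all 9 genes lay above Ctrl, in TP5 7 did and in sFD17 6 did. The median log2 fold change of the 4 B cell genes was 0.78 for TP5, 0.22 for sFD17 and 0.48 for FR17, and that of the 5 plasma cell and constant region genes was 0.02, −0.10 and 0.50. The medians over all genes were 0.00, −0.03 and 0.02. The plasma cell and constant region median therefore lay below the B cell median by a log2 difference of −0.76 in TP5 and −0.32 in sFD17, and the difference was 0.02 in FR17. Scaling by library size alone moves the median of all genes to 0.05, −0.23 and 0.26, and under it the B cell median in sFD17 was 0.00, with Cd79b at −0.01 and Ighm at −0.05, below Ctrl. The 5 genes of the second group spread from −1.51 to 0.28 in sFD17, so their median describes none of them closely: Jchain and Igha formed the lower end, and Mzb1 and Ighm the upper end.

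**Figure D2:**
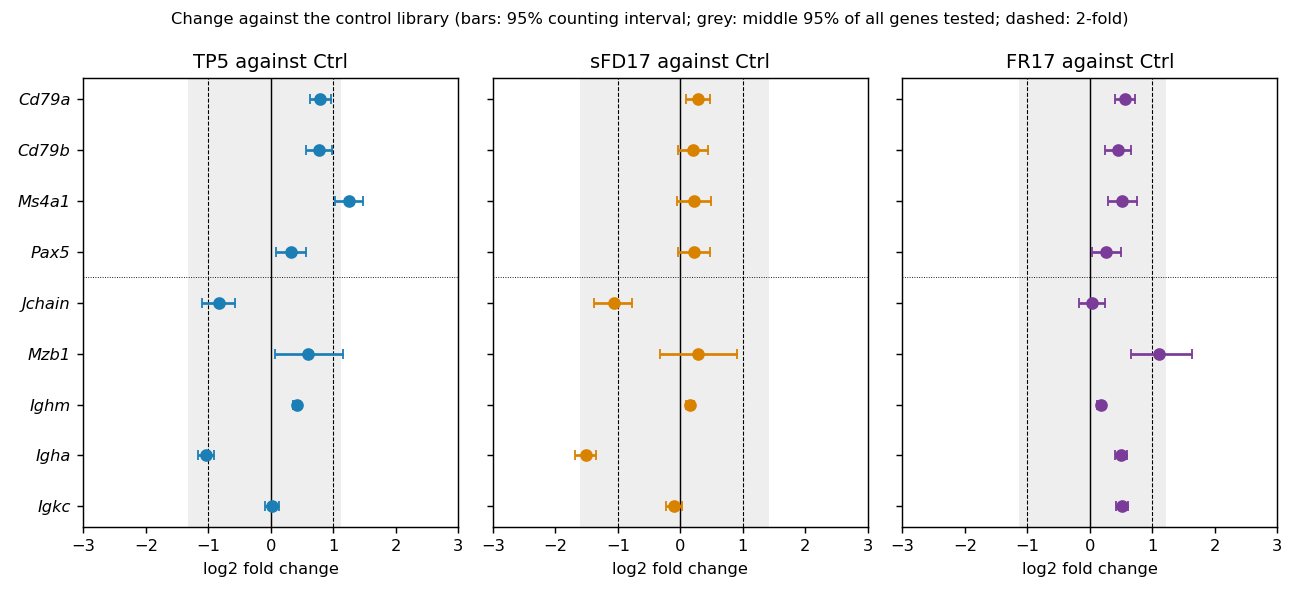
Log2 fold change of the 9 genes against the Ctrl library, with B cell genes above the dotted line and plasma cell and constant region genes below it. Points are single comparisons of 1 library with 1 library, bars are 95% counting intervals, dashed lines mark 2-fold and the grey band holds the middle 95% of all genes tested. Ms4a1 in TP5 (1.25) passed the upper dashed line, and Igha passed the lower one in TP5 (−1.03) and sFD17 (−1.51).

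Ratios within a library do not depend on how libraries are scaled. Igha made up 23.7% of the counts on Igha and Ighm in Ctrl (22.6 to 24.8) and 28.1% in FR17 (27.2 to 29.0), but 10.2% in TP5 (9.49 to 10.9) and 8.86% in sFD17 (8.03 to 9.76). All 4 Wilson intervals were separate except those of TP5 and sFD17. Over all heavy chain constant regions, Ighm took 72.2% of counts in Ctrl, 85.0% in TP5, 85.8% in sFD17 and 68.2% in FR17. Ighd, the IgD region co-expressed with Ighm on mature unswitched B cells, took 3.22% to 4.37%, and the 4 IgG genes Ighg1, Ighg2b, Ighg2c and Ighg3 together took 1.46% to 1.94%. Ighe, the IgE region, had 0 counts in every library, and the limit a count of 0 allows, taken as 3 counts, was 0.131 to 0.227 CPM per library.

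Jchain counts per Cd79a count were 0.724 (0.627 to 0.835) in Ctrl, 0.234 (0.199 to 0.273) in TP5, 0.282 (0.229 to 0.345) in sFD17 and 0.502 (0.448 to 0.562) in FR17. For Igha per Cd79a the values were 2.89 (2.60 to 3.22), 0.811 (0.732 to 0.898), 0.832 (0.722 to 0.958) and 2.78 (2.58 to 3.00). The intervals of TP5 and sFD17 overlapped in both ratios and lay below those of Ctrl and FR17, and for Jchain per Cd79a FR17 also lay below Ctrl. Mzb1 per Cd79a was 0.104 in Ctrl, 0.0910 in TP5, 0.105 in sFD17 and 0.154 (0.129 to 0.184) in FR17. Igkc took 88.5% of the light chain constant region counts in Ctrl (86.7 to 90.0) and 88.3% in FR17, against 80.2% in TP5 (78.2 to 82.0) and 83.7% in sFD17 (81.5 to 85.8), the remainder lying on the lambda genes Iglc1, Iglc2 and Iglc3.

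**Figure D3:**
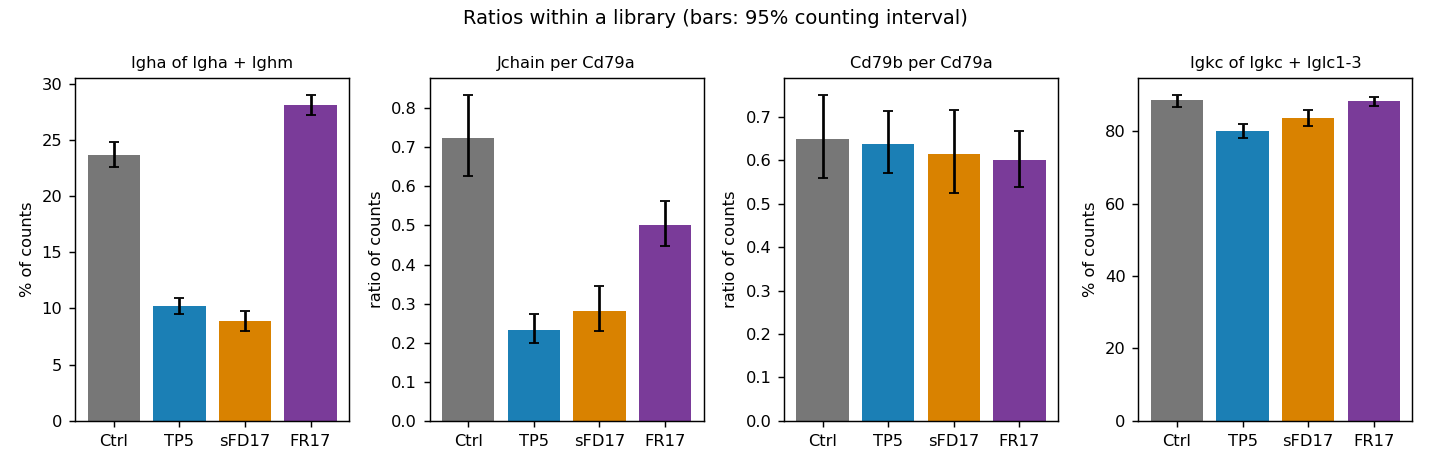
Ratios of counts within each library, on axes that start at 0, with 95% counting intervals: the percentage of Igha among Igha and Ighm counts, Jchain and Cd79b counts per Cd79a count, and the percentage of Igkc among light chain constant region counts. The first pair of panels shows TP5 and sFD17 below Ctrl and FR17 (10.2% and 8.86% against 23.7% and 28.1% for Igha), while Cd79b per Cd79a lay between 0.600 and 0.648 in all 4 libraries.

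The promoters of Cd79a and Jchain are shown because these genes went different ways in TP5 and both have a sequence and a motif match. RefSeq sequences of 250 bases before and 50 bases after the start site were given for 3 of the 9 genes (Cd79a, Jchain and Pax5) and not used here for Cd79b, Ms4a1, Mzb1, Ighm, Igha and Igkc. Cd79a lies at chr7:24897247-24897546 on the plus strand and Jchain at chr5:88527848-88528147 on the minus strand of GRCm38.p6, each written 5′ to 3′ along its gene, with motif matches in capitals:
Cd79a: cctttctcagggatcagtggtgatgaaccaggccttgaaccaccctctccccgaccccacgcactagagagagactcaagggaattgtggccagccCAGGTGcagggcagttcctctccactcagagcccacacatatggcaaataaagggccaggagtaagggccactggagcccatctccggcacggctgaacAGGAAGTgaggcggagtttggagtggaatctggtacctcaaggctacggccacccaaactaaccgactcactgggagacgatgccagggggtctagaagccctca
Jchain: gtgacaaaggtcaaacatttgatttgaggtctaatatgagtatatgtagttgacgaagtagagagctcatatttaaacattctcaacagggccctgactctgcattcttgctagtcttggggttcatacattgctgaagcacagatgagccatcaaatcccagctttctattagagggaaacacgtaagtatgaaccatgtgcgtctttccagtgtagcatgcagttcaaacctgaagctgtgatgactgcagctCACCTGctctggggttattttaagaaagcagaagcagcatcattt
Both strands were searched for the octamer ATTTGCAT, the E-box CAGGTG, the EBF1 core CCCNNGGG and the ETS core AGGAAGT. Cd79a held CAGGTG at −154 and AGGAAGT at −55 from the start site, and Jchain held CAGGTG on the opposite strand at 5, where it reads CACCTG. Positions are from the RefSeq start site, which for Cd79a lies downstream of the gene start given above, so that AGGAAGT falls inside the gene by the latter. Of 32851 promoters of the same length, 20.2% held CAGGTG and 9.35% AGGAAGT, and the remaining motifs, present in 1.74% (octamer) and 13.7% (EBF1 core), were not found in these windows or that of Pax5. A match in these letters is a description and not a measured binding site.

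The peptides were given at matched dose and time, so the libraries were also compared directly, in 3 pairs and without the Ctrl library. FR17 and sFD17 differ in the order of the residues of the pentapeptide on the same backbone. Between them, Igha was higher in FR17 by 2.01 (1.86 to 2.18) on the log2 scale and Jchain by 1.10 (0.82 to 1.41), the 2 genes of the 9 past 2-fold, where 22.1% of all genes were, a like share. Mzb1 and Igkc were at 0.82 (0.35 to 1.35) and 0.61 (0.51 to 0.72). The B cell genes were at 0.05 to 0.30, with Pax5 at 0.05 (−0.19 to 0.29), and Ighm was at 0.01 (−0.05 to 0.07). These values depend on the scaling: with library size alone, FR17 and sFD17 relative to Ctrl were at 0.80 and 0.07 for Cd79a, 0.76 and 0.00 for Ms4a1 and 0.42 and −0.05 for Ighm, where the medians of all genes were 0.26 and −0.23. Mzb1, at 1.34 and 0.08, and Igkc, at 0.76 and −0.31, then also differed by over 2-fold between these libraries.

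FR17 and TP5 differ in whether the pentapeptide is free or carried on the assembling backbone. Igha was higher in FR17 than in TP5 by 1.54 (1.42 to 1.66), the 1 gene of 9 past 2-fold, against 9.92% of all genes, which is again a like share, and Jchain was at 0.86 (0.62 to 1.11). With library size alone, Jchain was at 0.27 in FR17 and −0.78 in TP5 relative to Ctrl, and then also differed by over 2-fold. Cd79a, Cd79b and Ms4a1 were lower in FR17 than in TP5 by value, from −0.24 (−0.38 to −0.10) for Cd79a to −0.73 (−0.91 to −0.56) for Ms4a1. Pax5 was at −0.06 (−0.27 to 0.16), and its sign turned with library size alone and with no filter on low counts. Ighm was at −0.24 (−0.29 to −0.19).

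sFD17 and TP5 differ both in the residue order and in the backbone. Ms4a1 in sFD17 relative to TP5 was at −1.03 (−1.26 to −0.81), again 1 of 9 genes past 2-fold, against 12.4% of all genes. The remaining 8 genes were all lower in sFD17 by value, and the intervals of Pax5, Jchain, Mzb1 and Igkc included 0, with Jchain at −0.24 (−0.58 to 0.09). Igha was at −0.48 (−0.66 to −0.29). With library size alone, sFD17 and TP5 relative to Ctrl were at −1.28 and −0.78 for Jchain, −0.31 and 0.07 for Igkc and 0.00 and 0.37 for Pax5. Igkc and Pax5 then lay further apart than their counting intervals allow. The median of all genes between sFD17 and TP5 was then −0.30. The comparisons share libraries, so they are not independent of each other or of those against Ctrl.

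Other genes of B cells were read from wider lists. Of 19 further surface genes, 16 lay above Ctrl in TP5, 13 in sFD17 and 14 in FR17, with median log2 fold changes of 0.36, 0.11 and 0.23. Of these only Ly6d, a surface protein of early and mature B cells, passed 2-fold against Ctrl, and it did so in FR17, from 4.97 CPM in Ctrl to 10.5, with 9.98 in TP5 and 5.30 in sFD17. The share of all genes past 2-fold in that comparison was 7.5%. H2-DMb2, part of the machinery that loads MHC class II, had 36.8, 65.8, 44.0 and 51.2 CPM in Ctrl, TP5, sFD17 and FR17, and a log2 fold change of 0.84 (0.70 to 0.98) in TP5. Cxcr5, the receptor that guides B cells into follicles, had 11.5 CPM in Ctrl, 16.1 in TP5, 21.5 in sFD17 and, lowest, 10.3 in FR17. Its log2 fold change was 0.89 (0.63 to 1.17) in sFD17, 0.47 (0.21 to 0.75) in TP5 and −0.16 (−0.44 to 0.12) in FR17.

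The 14 further regulators and signalling genes had medians of 0.51 in TP5, 0.28 in sFD17 and 0.37 in FR17, with 13, 11 and 12 of them above Ctrl. In TP5, 2 of the 14 rose at least 2-fold, where 8.18% of all genes passed 2-fold in either direction: Bcl11a, a transcription factor of early B cells and dendritic cells, from 164 to 378 counts, and Fcrla, an intracellular Fc receptor-like protein of B cells, from 100 to 214. Blnk, the adaptor that links the B cell receptor to its downstream enzymes and that macrophages also express, was the 1 gene of the 14 that passed 2-fold in sFD17, against 11.8% of all genes, and it fell from 463 to 178 counts, with a log2 fold change of −1.02 (−1.28 to −0.77). It had 484 counts in TP5 and 692 in FR17. The 12 signalling genes that myeloid cells share with B cells, such as Syk, Btk and Lyn, had medians of −0.13, 0.38 and −0.37. None of them passed 2-fold against Ctrl.

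The 16 further plasma cell genes had medians of −0.03, −0.19 and −0.09 against Ctrl for TP5, sFD17 and FR17. Many of them serve secretion in any cell, and Xbp1, the regulator of the secretory program, had 3018 counts in Ctrl, 2555 in TP5, 1997 in sFD17 and 3746 in FR17, with log2 fold changes from −0.29 to −0.13. Tnfrsf17, which encodes BCMA, a survival receptor of plasma cells, had 17 counts in Ctrl, 4 in TP5, 1 in sFD17 but 50 in FR17. The ratio of its CPM to Ctrl was 0.227 (0.0555 to 0.695) in TP5, 0.0753 (0.00180 to 0.480) in sFD17 and 2.16 (1.23 to 4.00) in FR17. By these ratios Tnfrsf17 stood in the same order of libraries as Igha and Jchain, and it passed 2-fold against Ctrl in all 3. The only further gene of the list past 2-fold was Derl3, a component of protein quality control in the endoplasmic reticulum, with 7 counts in sFD17 against 22 in Ctrl. Thus 1 of the 16 passed in TP5, 2 in sFD17 and 1 in FR17, close to the shares over all genes of 8.18%, 11.8% and 7.5%. Irf4, a transcription factor of activated B cells and plasma cells that myeloid cells also use, had 469 counts in Ctrl and 953 in TP5, at 0.97 (0.81 to 1.13), with 540 in sFD17 and 740 in FR17. Ell2, an elongation factor used for secreted antibody transcripts, was at −0.83 (−0.89 to −0.76) in FR17 from 4543 counts in Ctrl.

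Of the 9 further constant regions 8 were tested, and their medians were 0.44, 0.22 and 0.29. Ighg2b fell in TP5 and sFD17, from 68 counts in Ctrl to 31 and 22, and had 88 in FR17. Iglc3, a lambda light chain region, rose in TP5 from 18 counts to 104, a log2 fold change of 2.36 (1.75 to 3.29), with 20 in sFD17 and 38 in FR17. Ighg1 passed 2-fold on very few counts, with 1 in Ctrl, 13 in TP5, 10 in sFD17, then 2 in FR17. The lambda regions resemble each other, so reads could have been divided differently among Iglc1, Iglc2 and Iglc3. Iglc1 was at 0.76 (0.30 to 1.27) in sFD17. The variable segments, the part of the antibody that binds antigen, were detected as well. The heavy chain segments summed to 53.1 CPM in Ctrl, 60.7 in TP5, 55.2 in sFD17, then 59.5 in FR17. The kappa segments summed to 58.1, 58.3, 49.9 and 65.9 CPM in the same order, and the 3 lambda segments to 7.70, 18.1, 9.24 and 8.41.

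**Figure D4:**
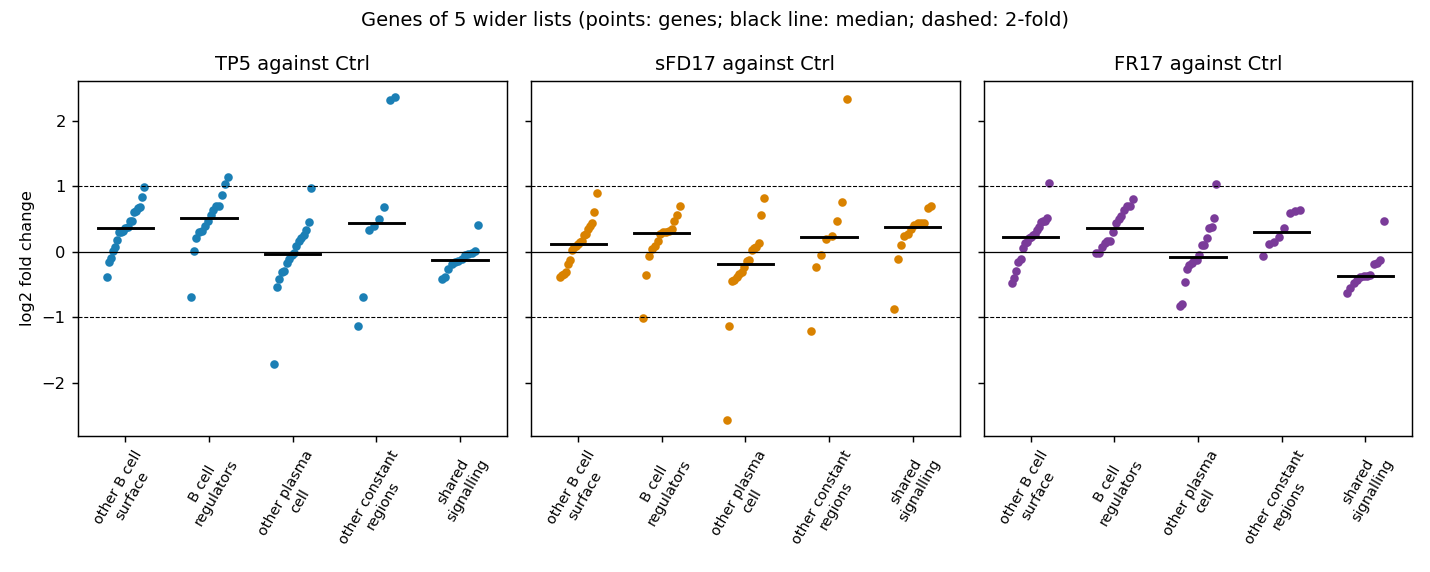
Log2 fold change against the Ctrl library of the genes of 5 wider lists, as points, with the median as a black line and 2-fold as dashed lines. B cell surface genes and regulators had medians of 0.36 and 0.51 in TP5, and the plasma cell list had medians from −0.19 to −0.03 with single genes far from them.

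Genes of other stages were measured too. Of 9 precursor genes only 4 had enough counts to be tested, and Rag1, Vpreb1, Vpreb2 and Igll1, which early B cells in the bone marrow use, had at most 3 counts in any library, and Rag2 had 0. Bst1, Cd93 and Erg, which granulocytes or endothelial cells also express, made up nearly all counts of that list, and none of these passed 2-fold against Ctrl. Dntt, which adds bases at segment joins, had 2 counts in Ctrl, 5 in TP5, 0 in sFD17 and 17 in FR17. Fas and S1pr2, on the germinal center list, are not specific to B cells. Fas rose in sFD17 from 1044 to 1750 counts, and S1pr2 was at 0.81 (0.64 to 0.98) there. Gcsam, a germinal center adaptor, rose in TP5 from 14 counts to 42. In the list of B1 and marginal zone genes, Plac8, which myeloid cells also express, rose from 1608 counts to 6854 in sFD17 and 3369 in TP5. Fcrl5 rose in TP5 from 13 to 33, and Bhlhe41 fell in sFD17 from 89 to 32, while Zbtb32 was at 0.93 (0.55 to 1.35) in TP5.

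Of 6 tested genes for signals that attract or sustain B cells or carry IgA across the epithelium, 4 passed 2-fold in sFD17, against 11.8% of all genes. In TP5 1 did and in FR17 0 did, against 8.18% and 7.5% of all genes, and the difference between these counts was not tested. Cxcl13, the ligand of Cxcr5, fell from 323 counts to 56 in sFD17, and had 190 in TP5 and 463 in FR17. Tnfsf13, which encodes APRIL, a survival factor of plasma cells and the ligand of the receptor encoded by Tnfrsf17, fell from 82 to 24, with 83 in TP5 and 136 in FR17. Pigr, the epithelial receptor that transports polymeric IgA, rose from 44 counts to 127 in sFD17 and 99 in TP5, with 65 in FR17. Il6, a cytokine that acts on plasma cells among many others, fell from 1502 to 509 in sFD17.

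To see which genes resemble them most, the 3 log2 fold changes against Ctrl were compared among 9800 genes with at least 50 counts in every library, by the largest difference over the 3 peptides. Nearest to Cd79a were Chaf1a (0.06), Endod1 (0.07), H2-DMb2 (0.08), Gm13680 (0.09) and Ccdc102a (0.10), of which H2-DMb2 was on the B cell list. Nearest to Igkc were Minpp1 (0.03), Nifk (0.06), Dennd2a (0.06), Rpl7a-ps5 (0.06) and Selenow (0.07). For Igha, examined after its values were seen, the nearest was Igfbp4 at 0.13, with 1651 counts in Ctrl, 764 in TP5, 472 in sFD17 but 2934 in FR17. The measure describes likeness in these 4 libraries only.

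Markers of other cell types also differed between the libraries. The 12 macrophage markers, none at 0 in any library, summed to 6309 CPM in Ctrl, 5087 in TP5, 2309 in sFD17 but 8110 in FR17, the order in which Igha and Jchain stood. By value 11 of the 12 lay below Ctrl in TP5, all 12 did in sFD17, and 10 lay above it in FR17. The 6 platelet markers, of which Gp1bb was at 0 throughout, followed the same order with 112, 47.6, 30.2 and 146 CPM, of which most was Pf4 (1733 of 1886 counts in Ctrl), and 4 of the 5 tested lay above Ctrl in TP5 and in sFD17. The 6 red blood cell markers summed to 22.7, 10.5, 13.5 and 35.5 CPM. The 14 T cell markers summed to 91.5 CPM in Ctrl, 91.2 in TP5, 63.9 in sFD17 but 165 in FR17, and the 10 NK cell markers to 41.0, 29.1, 36.3 and 123, none of them at 0. By value 10 of the 14 T cell markers lay above Ctrl in TP5, 5 in sFD17 and all 14 in FR17. Cd4 was the 1 marker at least 2-fold lower, both in TP5 (192 counts) and in sFD17 (93), from 398 in Ctrl. The shares of all genes past 2-fold in either direction were 8.18% and 11.8% there. At least 2-fold higher in FR17 were 5 of the 14, against a share of 7.5%. Of the NK cell markers 1, 4 and 10 lay above Ctrl, and all 10 were at least 2-fold higher in FR17, where 7.5% of all genes passed 2-fold in either direction. Of the 10 markers of plasmacytoid dendritic cells, none was at 0 and the sum was 281, 283, 287 and 338 CPM, most of it on the broadly expressed Irf8, Runx2, Bst2 and Tcf4. At least 2-fold above Ctrl were 3 of the 10 in TP5, 2 in sFD17, then 3 in FR17, where 8.18%, 11.8% and 7.5% of all genes passed 2-fold in either direction, and Siglech was at least 2-fold below it in sFD17. Ccr9, past 2-fold in TP5 and FR17, had 22, 55, 32 and 83 counts, Pacsin1 11, 37, 23 and 40, and Klk1 2, 15, 8 and 31. Of the 18 neutrophil markers, 10 lay above Ctrl in TP5, 17 in sFD17 and 5 in FR17, with median log2 fold changes of 0.04, 0.43 and −0.23. Csf3r, the receptor for granulocyte colony-stimulating factor, was at −0.47 in TP5 and −1.04 in FR17. Within this list, the granule genes Camp, Ltf and Ngp were at 0.89, 0.82 and 0.78 in TP5, at 0.50, 0.58 and 0.52 in sFD17 and at 0.53, 0.44 and 0.31 in FR17. Cd79a and Cd79b were at 0.79 and 0.77, 0.28 and 0.20, and 0.56 and 0.45. The part of these in the results above was not tested.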

How the data were processed

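One mRNA library per group was made from CD11b+Ly6g+ cells pooled from 10 to 12 mice, with a directional kit. The deposited values are read counts for each gene, not normalized by the authors. The submitters' processing notes name HISAT2 2.0.5, StringTie 1.3.3b, featureCounts 1.5.0-p3, edgeR 3.18.1 and GRCm38.p6 without their roles, and whether counting used the strand is not given in the sources used here. Of the 9 genes, 8 have identical coordinates in GENCODE M21. Columns were matched to groups by name, with 0 left unmapped.

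Using R 4.3.3 and edgeR 4.0.16, genes reaching 10 counts in any library were kept for TMM scaling, and log2 CPM was computed with a prior count of 2. A gene was called at a 2-fold change. Intervals are exact conditional binomial for ratios, exact Poisson for levels and Wilson for shares, at 95%, and cover counting error only. The quasi-likelihood test needs replicates and was not run. The exact test of edgeR between single libraries, with a trended dispersion from the 4 libraries as 1 group, was an alternative, as were DESeq2 1.42.0 size factors, library size alone, other filters and a prior count of 0.5. Where a symbol stood on several rows, the one with the highest total was taken. Members, lists and rules were chosen with earlier results of these data known. Named genes are the 9 members, up to 3 genes per wider list with the largest change and at least 50 counts, and the 5 nearest to Cd79a and to Igkc, besides genes named as examples of their list, chosen after their values were seen. Some genes that this rule names are not reported here. The fold calculation was tested on simulated data.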

Additional observations from a re-analysis of the deposited data

How the results depend on the processing

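No paired analysis was possible because each group has 1 library, and for the same reason none could be left out. Of 69 alternative values of the main results, 59 were counted as unchanged and 10 as moved, and none of the called values of the 9 genes changed sign. For counts of genes the limit was 1.5 times the count. No counting interval is given here for the medians and their differences. The unchanged values include the plasma cell and constant region median in sFD17, which went from −0.10 to −0.31 with library size alone. That median is the value of Igkc, whose counting interval was −0.22 to 0.02. With library size alone, 1 gene in place of 2 passed 2-fold in TP5, since Igha stood at −0.98, and in FR17 the B cell median moved from 0.48 to 0.72 and the plasma cell and constant region median from 0.50 to 0.75. Without Ighm, the latter median moved to −0.41 in TP5 and −0.58 in sFD17. By edgeR's exact test at an unadjusted p under 0.05, 2 genes were called in TP5, 2 in sFD17 and 0 in FR17, where Mzb1 lost its call. After Benjamini-Hochberg adjustment the count was 0 in each. At 1.5-fold, an alternative chosen after seeing the data, 6 genes passed in TP5, 2 in sFD17 and 1 in FR17. Low counts limit Mzb1, with 46 to 143 per library, more than the other 8 genes, whose lowest count was 124.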
